A study of Mus musculus with 12 samples.

Results

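T-box proteins are transcription factors that bind DNA through a shared T-box domain, and many of them set the identity of regions of the embryo. In mouse development Tbx5 marks the heart and the forelimb bud, Tbx4 marks the hindlimb bud, and Tbx20 is needed for growth of the heart. Tbx2 and Tbx3 are transcriptional repressors that act in the heart's conduction system and in limb patterning. Tbx18 is a gene of the epicardium and the sinus node, and Tbx15 is a gene of the dermis and skeleton of trunk and limb. These 7 genes are described here on 12 arrays of mouse embryonic fibroblasts (MEFs), connective tissue cells grown from embryos. They were found as the non-control probes with those gene names, 16 probes in all, out of 27948 gene names on the array. The genes were chosen from their levels by genotype and by the number in the sample titles, so every level and difference given for them describes the arrays and supports nothing.

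The study compared MEFs by the dosage of SIRT1, an NAD-dependent protein deacetylase, on 4 arrays of SIRT1 knockout (KO) cells, 4 of SIRT1 heterozygous (Het) cells and 4 of wild type (WT) cells, all labelled female and untreated. All cells were harvested in log growth from DMEM that held 10% serum (FBS), glucose at 25 mM and glutamine at 4 mM, and 500 ng of total RNA was labelled with Cy3 for each array. The titles number the arrays 2, 3, 4 and 5 in KO, 2, 3, 4 and 5 in Het, and 1, 2, 3 and 5 in WT. The labels give no strain, no age of the embryos and no description of the SIRT1 alleles, and they do not say whether arrays came from separate embryos or cultures. How much of the spread between arrays is technical is thus not known. In sex-linked RNA, WT array 3 differed from the other WT arrays, as given below.

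A level is a probe's processed signal on the log2 scale, less the 75th percentile of its array, so 0 equals that percentile and 1 unit is a doubling of signal. Levels of different probes were not set against each other. A probe was tested when it was well above background on all arrays of at least 1 genotype, and called when limma's adjusted p, over all 25590 tested probes, was under 0.05. Of the 16 probes 10 were tested, for all genes but Tbx5. In a culture, fewer cells of a type and less RNA per cell cannot be told apart.

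The arrays had 60% to 65.1% of probes well above background on slides 1 to 3 and 77.2% to 78.2% on slide 4, where probes without signal reached lower levels, so levels below background have no order between slides. Slide 1 held KO 3, Het 3 and Het 4, slide 2 held WT 1, slide 3 held KO 2, Het 2, WT 2 and WT 3, and slide 4 held KO 4, KO 5, Het 5 and WT 5. The library labelled WT replicate 3 went against its label of female cells: Xist, the RNA that silences an X chromosome, was at -2.94 there and at 1.66 to 3.42 on the other arrays, and the Y-linked genes Ddx3y and Eif2s3y were at 1.04 and 0.92 there and at most at -4.35 and -3.92 elsewhere. The next highest arrays for both of these probes were Het 3 (-4.35 and -3.92) and KO 3 (-5.28 and -5.02), well above background, with Xist at 1.66 and 3.19 there. On the remaining arrays both probes were at -6.08 or lower. A further Ddx3y probe was well above background only on WT 3 (-3.3) and WT 2 (-4.8), with Het 3 at -7.2 and KO 3 at -8.56. Of the 2 Sirt1 probes, 1 averaged -0.47 ± 0.28 in KO, 0.37 ± 0.03 in Het and 0.36 ± 0.21 in WT cells (SD, n = 4 each), and the other averaged 0.81 ± 0.41 in KO, 0.87 ± 0.34 in Het and 0.79 ± 0.24 in WT cells. The labels do not describe the alleles, so whether either probe lies in an altered part of the gene was not determined. All 12 fibroblast markers looked for were well above background on all 12 arrays. With unscaled signals the median difference over all tested probes was -0.21 for Het minus WT and 0.25 for KO minus Het, and the share of calls that were higher was 17.3% against 48.4% after scaling for Het minus WT and 81.8% against 64.1% for KO minus Het.

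The probes are 60-base oligonucleotides, and those shown are probes of the genes whose genotype or title number differences are described at length. Where a gene has several probes they are lettered from the highest mean level downwards. Positions are those of the array files, in build mm7; since gene models of mm7 were not used here, exon or untranslated region is not stated. Tbx5 b and Tbx4 b report genes that were high on opposite sets of WT arrays, and Tbx15 b reports the gene of trunk dermis. Tbx5 b lies on the plus strand of chr5:119105369-119116931, a span of 11563 bases that the probe crosses with a gap. Tbx4 b lies on the plus strand of chr11:85981058-85981117 and Tbx15 b on the plus strand of chr3:99149134-99149193.
Tbx5 b: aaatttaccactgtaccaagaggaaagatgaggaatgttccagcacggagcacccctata
Tbx4 b: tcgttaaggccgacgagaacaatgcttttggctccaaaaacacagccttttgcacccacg
Tbx15 b: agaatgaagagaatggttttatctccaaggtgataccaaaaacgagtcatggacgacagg

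The first 30 bases are given for 4 further probes, because the calls and the largest differences rest on them. Tbx20 a lies on the minus strand of chr9:24605717-24605776 and Tbx20 b on the minus strand of chr9:24607257-24607316. Tbx5 a lies on the plus strand of chr5:119118064-119118123 and Tbx3 a on the plus strand of chr5:118918450-118918509.
Tbx20 a: actaaggagcatgtaagacactgcatttaa
Tbx20 b: gtagttggtttccagacaaaatacagatgt
Tbx5 a: aaatacctacctccgtcatgtgagatgtct
Tbx3 a: ggcatcttactaacccatgtgaggttttca

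The longest run of bases that any of the 16 probes shared with a probe of another of the 7 genes, on either strand, was 9. The GC content was 20% for Tbx4 a, 73.3% for the Tbx2 probe and between 35% and 50% for the other 14. The accession of 11 probes matched a RefSeq transcript of the named gene; the other 5 keep the name the array files give. Tbx3 and Tbx5 are neighbours on chromosome 5 with 0 protein-coding genes between them, and so are Tbx2 and Tbx4 on chromosome 11.

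Tbx20, a factor of heart muscle growth, was the gene called in the comparisons with WT. Probe Tbx20 a was at -8.46, -3.73, -9.16 and -9.31 on KO arrays 2, 3, 4 and 5, at -7.96, -6.21, -7.94 and -8.49 on Het arrays 2, 3, 4 and 5, and at -0.75, -1.06, -1.29 and -0.62 on WT arrays 1, 2, 3 and 5. All 4 WT arrays lay above every KO and Het array, and outside WT only KO replicate 3 was well above background. Tbx20 a fell in KO cells (-6.73 ± 1.03, difference ± SE) and in Het cells (-6.72 ± 1.03) relative to WT. Since no Het array was above background, the fold is a bound, taken against the lowest signal well above background on each array: at least 41.1-fold lower in Het than in WT cells. For KO cells, with 1 of 4 arrays above background, the difference of means was 106-fold, and without the arrays numbered 3 the level was at least 93.5-fold lower than in WT.

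Probe Tbx20 b showed the same order of genotypes. It was at -8.45, -4.27, -10.09 and -10.16 on KO arrays 2, 3, 4 and 5, at -7.96, -7.03, -7.92 and -9.48 on Het arrays 2, 3, 4 and 5, and at -1.54, -1.27, -2.67 and -1.12 on WT arrays 1, 2, 3 and 5. The WT arrays again lay above all others, and KO replicate 3 was again the only other array well above background. Tbx20 b fell in KO (-6.59 ± 1.09) and in Het cells (-6.45 ± 1.09, at least 25-fold). The 2 further Tbx20 probes were dim: Tbx20 c was well above background on 2 WT arrays, at -4.72 and -4.75, and Tbx20 d on WT replicate 5, at -7.38, and both on no KO or Het array. Across the 12 arrays the levels of Tbx20 a and Tbx20 b correlated with r = 0.992, as a description.

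These were 2 of the 10 tested T-box probes in KO minus WT, where 1.49% of all tested probes were called, and 2 of 10 in Het minus WT, where 1.08% were called. In KO minus Het, with 0.817% of tested probes called, limma called 0 of the 10, and 3 had an unadjusted p under 0.05. Over all 25590 tested probes, 2879 had an unadjusted p under 0.05 in KO minus Het, 4157 in KO minus WT and 4072 in Het minus WT. Both Tbx20 probes passed the filter through WT alone, where they were high. Both comparisons with WT share the WT arrays, and the genes were chosen from these values, so nothing is read from the shares. Within slide 3 Tbx20 a differed by -7.28 for KO minus WT and by -6.78 for Het minus WT, and within slide 4 by -8.61 and -7.87; with slide as a fixed block it differed by -7.28 ± 0.86 and -8.03 ± 0.91, both called. With a background correction that adds an offset of 50, it differed by -3.33 and -3.9, and both stayed called. The KO minus WT call of Tbx20 a was lost without KO replicate 4 (-6.23) and its Het minus WT call without any 1 of Het replicates 2, 4 and 5 and WT replicates 2 and 5 (-6.76 to -6.44). The KO minus WT call of Tbx20 b was lost without any 1 of KO replicates 2, 4 and 5 and WT replicates 2 and 5 (-6.52 to -5.95), and its Het minus WT call without any 1 of Het replicates 2, 4 and 5 and WT replicates 1, 2 and 5 (-6.51 to -5.99). Arrays of the third genotype enter the spread too: without KO replicate 2, only 1 Tbx20 probe was called in Het minus WT.

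**Figure D1:**
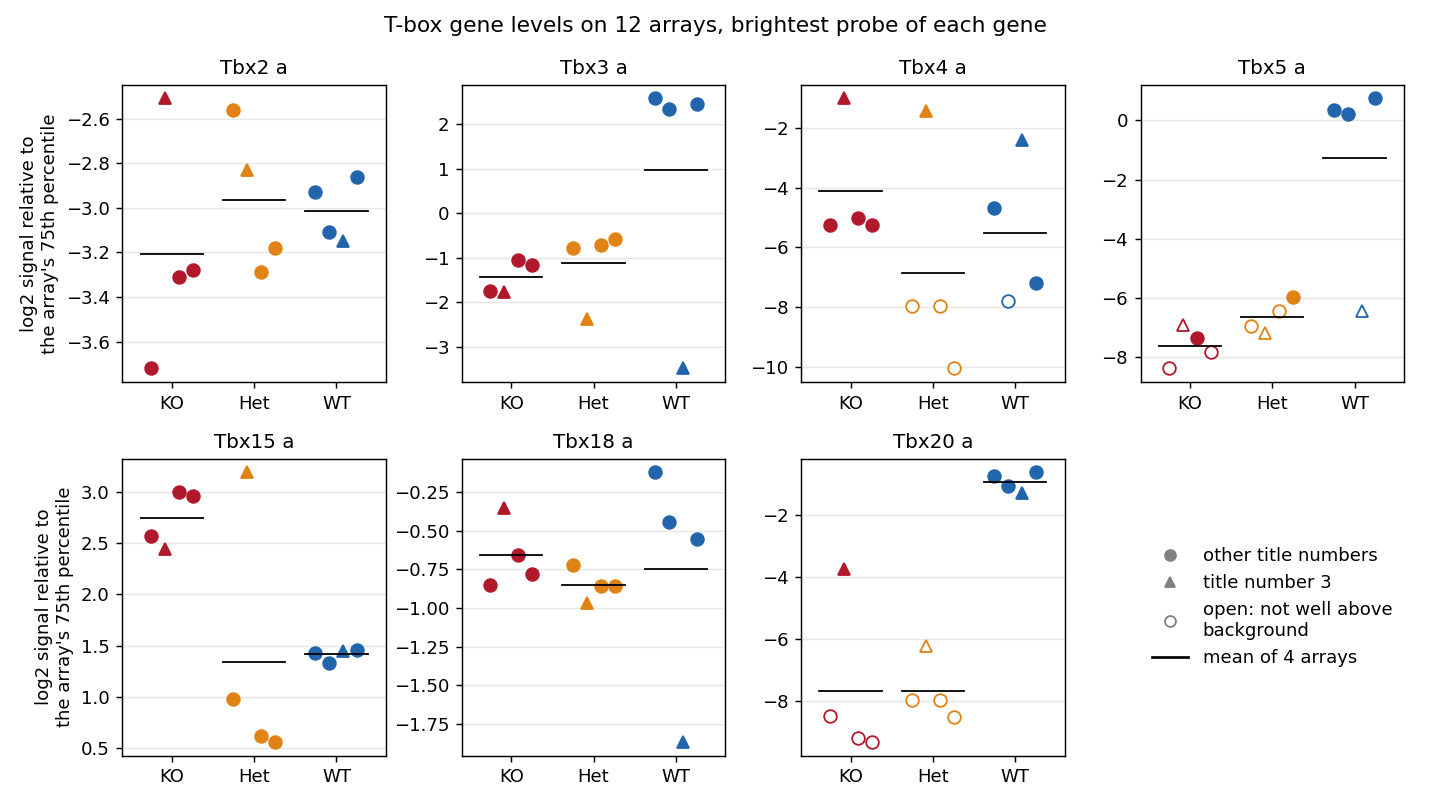
Level of the brightest probe of each T-box gene (y axis, log2 signal relative to the array's 75th percentile, with its own scale in each panel) in KO, Het and WT cells; points are single arrays, triangles the arrays numbered 3, open symbols probes not well above background, and lines the mean of 4 arrays. Tbx20 a separates the 4 WT arrays (-1.29 to -0.62) from all others, while Tbx3 a and Tbx5 a are high on WT arrays 1, 2 and 5 and low on WT array 3, and Tbx4 a is highest on the array numbered 3 in each genotype.

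Tbx5 and Tbx3, neighbours on chromosome 5, were high on 3 of the 4 WT arrays and low on the other. Probe Tbx5 a was at -8.37, -6.9, -7.34 and -7.8 on KO arrays 2, 3, 4 and 5, at -6.94, -7.19, -6.44 and -5.97 on Het arrays 2, 3, 4 and 5, and at 0.35, 0.22, -6.44 and 0.74 on WT arrays 1, 2, 3 and 5. Outside WT arrays 1, 2 and 5, it was well above background on KO replicate 4 and Het replicate 5 only. The mean was -7.6 ± 0.63 in KO, -6.64 ± 0.54 in Het and -1.28 ± 3.45 in WT cells (SD, n = 4 each), so the WT spread rests on replicate 3, where the level was at least 97-fold lower than the mean of the other WT arrays. The 12-array fit left both Tbx5 probes untested, because no genotype had all 4 arrays above background. Without the arrays numbered 3, Tbx5 a was called in KO (-8.27 ± 0.32) and in Het cells (-6.89 ± 0.32) relative to WT. Within slide 4, which holds no array numbered 3, Tbx5 a differed by -8.31 for KO minus WT and -6.71 for Het minus WT, and within slide 3, which holds WT 3, by -5.26 and -3.83.

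Probe Tbx5 b gave the same split at a dimmer level. It was at -5.36, -8.2, -7.33 and -7.49 on KO arrays 2, 3, 4 and 5, at -7.82, -8.03, -7.75 and -6.83 on Het arrays 2, 3, 4 and 5, and at -3.46, -3.09, -8.19 and -2.64 on WT arrays 1, 2, 3 and 5. WT arrays 1, 2 and 5 lay above all other arrays, and KO array 2 was next. With the background correction of offset 50 the 12-array KO minus WT differences shrank, to -3.47 for Tbx5 a and -0.79 for Tbx5 b, against -6.32 and -2.75.

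Tbx3, a repressor, was measured above background on every array with probe Tbx3 a. It was at -1.76, -1.78, -1.06 and -1.17 on KO arrays 2, 3, 4 and 5, at -0.79, -2.39, -0.71 and -0.58 on Het arrays 2, 3, 4 and 5, and at 2.58, 2.35, -3.49 and 2.45 on WT arrays 1, 2, 3 and 5. WT replicate 3 was the lowest of the 12 arrays and the other 3 WT arrays were the highest. The array numbered 3 was also the lowest of its genotype in KO, by 0.44 below the mean of the others, and in Het, by 1.69. The difference from WT was -2.41 ± 1.12 in KO and -2.09 ± 1.12 in Het cells with all arrays, not called, and -3.79 ± 0.2 and -3.15 ± 0.2 without the arrays numbered 3, both called. Within slide 4 it was -3.56 in KO and -3.03 in Het cells, within slide 3 it was -1.19 and -0.22, and with slide as a fixed block -2.13 ± 1.3 and -1.49 ± 1.37. Probe Tbx3 b, on the plus strand of chr5:118906718-118906777, was well above background on WT arrays 1, 2 and 5 (-4.43, -4.99 and -5.37) and on Het array 5 (-7.3).

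Some markers of other cell types moved with this split and others did not. The summed signal of the 9 cardiomyocyte markers, in multiples of the array's 75th percentile, was 8.66 to 11.6 in KO, 5.92 to 10.5 in Het, and 16.9, 27.6, 8.73 and 31.9 on WT arrays 1, 2, 3 and 5. Actc1, the cardiac actin, gave 91.4% to 98.6% of that sum. Without it the other 8 markers summed to 0.241 to 0.318 in KO, 0.296 to 0.508 in Het, and 0.319, 0.45, 0.605 and 0.447 on WT arrays 1, 2, 3 and 5, which does not follow the split. Of the 9 markers 3 (Actc1, Nppa and Tnni3) were well above background on all arrays, and Myh6 and Ryr2 on 1 array each. The 6 smooth muscle and pericyte markers summed to 152 to 173 in KO, 81.4 to 136 in Het, and 244, 394, 81.7 and 382 on WT arrays 1, 2, 3 and 5. The 5 mesothelial markers summed to 34.3, 11, 28.6 and 26.1 on KO arrays 2, 3, 4 and 5, to 9.12 to 20.6 in Het, and to 19.2, 65.4, 3.17 and 42.5 on WT arrays 1, 2, 3 and 5, so WT array 1 lay below 3 of the KO arrays. Msln gave 14.7% to 98.5% of that sum. Without Msln the sums were 1.72 to 4.3 in KO and 0.303 to 3.11 in Het. On WT arrays 1, 2, 3 and 5 they were 12.3, 17.6, 2.7 and 7.36. Of the markers left, Krt19 was well above background on all 12 arrays, Upk3b on 6, and Wt1 and Lrrn4 on none. Krt19 followed the split, at 2.88 to 4.13 on WT arrays 1, 2 and 5, 1.4 on WT array 3 and at most 2.09 elsewhere. Upk3b did not, at -4.15 on WT array 3 and -6.34 to -4.22 on the other WT arrays. The 4 epithelial markers summed to 1.32 to 1.51 in KO, 0.295 to 2.3 in Het, and 0.299, 0.468, 0.119 and 0.628 on WT arrays 1, 2, 3 and 5. They did not follow the split, as WT array 3 was the lowest of all. The 6 macrophage markers, at 0.306 to 0.398 in KO, 0.301 to 0.536 in Het and 0.245 to 0.665 in WT cells, did not follow it either. The 6 skeletal muscle markers summed to 1.71 to 2.69 in KO, 1.32 to 2.2 in Het, and 3.25, 5.17, 1.64 and 5.69 in WT, as above. In the same order the 4 neural markers summed to 2.98 to 11.7, 3.94 to 9.84, and 13.7, 21.7, 2.4 and 16. Acta1 gave 93.9% to 97.6% of the first sum and Nes 71.9% to 95.5% of the second. The 5 endothelial markers summed to 0.371 on KO array 3, above WT arrays 2, 3 and 5 (0.271, 0.239 and 0.348). The part of other cell types in the Tbx5, Tbx3 and Tbx20 levels was not tested.

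**Figure D2:**
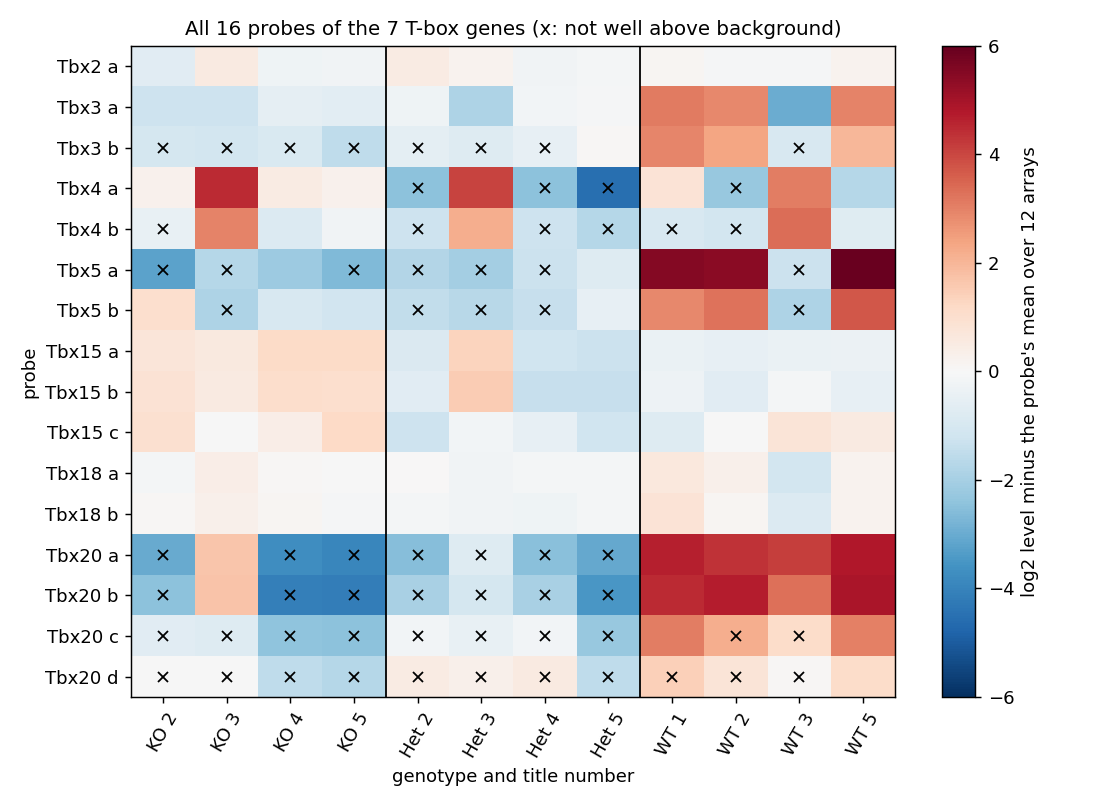
Level of each of the 16 probes (rows) on each array (columns, by genotype and title number) minus the probe's mean over 12 arrays, in log2 units by colour, with a cross where the probe was not well above background. Tbx3, Tbx5 and Tbx20 share red cells on WT arrays 1, 2 and 5, on WT array 3 Tbx20 a and b stay red while Tbx3 and Tbx5 do not, and both Tbx4 probes are red on the 3 arrays numbered 3.

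Tbx4, the hindlimb factor, was high on the array numbered 3 in all 3 genotypes. Probe Tbx4 a lies on the plus strand of chr11:85985800-85985859. In KO cells it was at -1.02 on array 3, and at -5.24, -5 and -5.25 on arrays 2, 4 and 5. In Het cells it was at -1.43 on array 3, and not well above background on arrays 2, 4 and 5 (-7.95, -7.97 and -10.04). In WT cells it was at -2.42 on array 3, and at -4.69, -7.78 and -7.19 on arrays 1, 2 and 5, the second of them below background. The array numbered 3 was thus the highest of its genotype each time, 17.7-fold above the mean of the others in KO, at least 31.7-fold in Het and 17.6-fold in WT cells. Probe Tbx4 b gave the same order: in KO cells -3.72 on array 3, and -7.16, -7.51 and -6.93 on arrays 2, 4 and 5; in Het cells -4.51 on array 3, and -7.96, -7.96 and -8.4 on arrays 2, 4 and 5; in WT cells -3.35 on array 3, and -7.66, -7.79 and -7.42 on arrays 1, 2 and 5.

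By genotype the Tbx4 levels overlapped. For Tbx4 a the difference was 1.4 ± 1.78 for KO minus WT, -1.33 ± 1.78 for Het minus WT and 2.72 ± 1.78 for KO minus Het, none of them called. With slide as a fixed block they were 1.01 ± 1.72, -2.91 ± 1.82 and 3.92 ± 1.55, also not called. Without the arrays numbered 3 the KO level was above the Het level on every array (3.49 ± 0.81, called, and at least 2.4-fold since no Het array was above background). Tbx4 a passed the filter through KO alone, where it was high, so nothing is read from that call.

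Counted over all tested probes, the array numbered 3 was higher than every other array of its genotype in all 3 genotypes for 6.87% and lower for 8.19%. Of the 10 tested T-box probes, 1 (Tbx4 a) was on the higher side and 1 (Tbx3 a) on the lower. For number 2 the shares were 1.35% higher and 0.684% lower, for number 5 they were 0.895% higher and 0.375% lower, and 0 T-box probes were in any of these 4 counts. KO 3 and Het 3 lay on slide 1 with Het 4, and WT 3 on slide 3. On slide 1, Tbx4 a was at -1.43 on Het 3 and at -7.97 on Het 4, and on slide 3 it was at -2.42 on WT 3 and at -7.78 on WT 2.

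**Figure D3:**
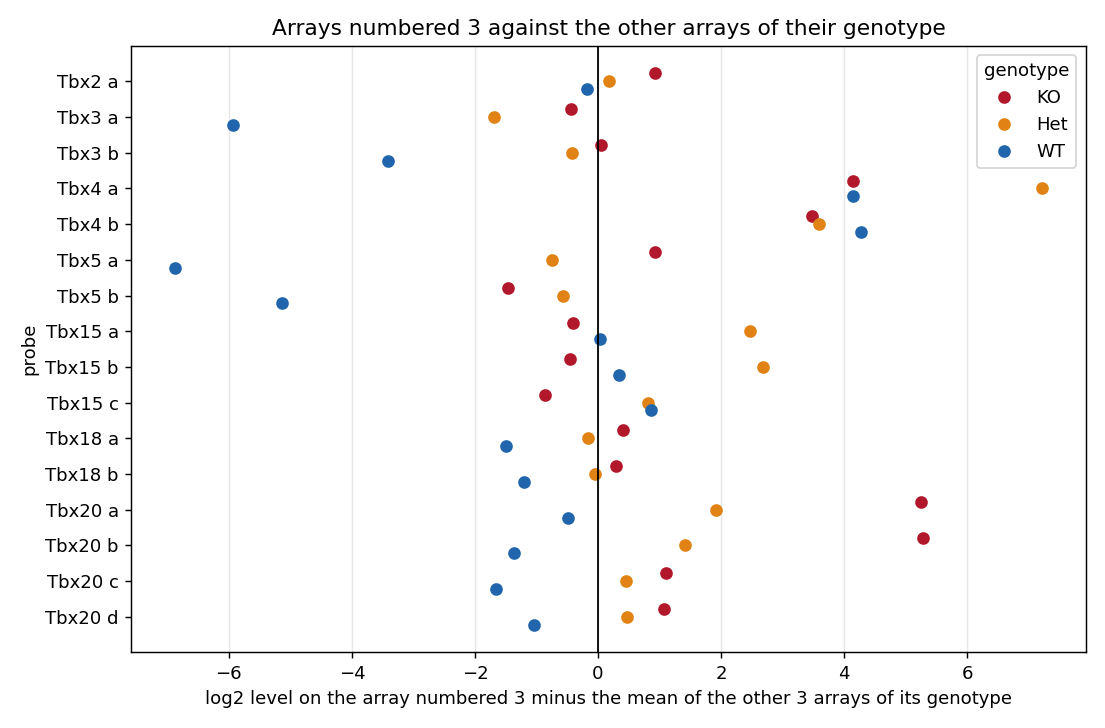
Level on the array numbered 3 minus the mean of the other 3 arrays of its genotype (x axis, log2 units) for each of the 16 probes (y axis), with KO, Het and WT as points. Both Tbx4 probes lie between 3.48 and 7.22 in all genotypes, Tbx5 and Tbx3 lie furthest to the left in WT, and Tbx20 a and b lie to the right in KO (5.25 and 5.29).

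Tbx15, the factor of trunk dermis and limb skeleton, was bright on every array. Probe Tbx15 a, on the plus strand of chr3:99149413-99149472, was at 2.57, 2.44, 3 and 2.96 on KO arrays 2, 3, 4 and 5, at 0.98, 3.19, 0.62 and 0.56 on Het arrays 2, 3, 4 and 5, and at 1.43, 1.33, 1.45 and 1.46 on WT arrays 1, 2, 3 and 5. All KO arrays lay above all WT arrays, and the Het array numbered 3 lay above every KO array while the other Het arrays lay below every WT array. Tbx15 a averaged 2.74 ± 0.28 in KO, 1.34 ± 1.25 in Het and 1.42 ± 0.06 in WT cells (SD, n = 4 each). The differences were 1.32 ± 0.47 for KO minus WT (2.5-fold) and -0.08 ± 0.47 for Het minus WT, neither of them called. Without the arrays numbered 3 they were 1.43 ± 0.17 and -0.69 ± 0.17, both called, and KO minus Het was 2.12 ± 0.17, called. Tbx15 a was higher in KO than in WT cells within slide 3 (1.18) and within slide 4 (1.52), and with slide as a fixed block the difference was 1.17 ± 0.61, not called.

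Probe Tbx15 b followed the same order, at 2.46, 2.11, 2.61 and 2.6 on KO arrays 2, 3, 4 and 5, at 0.91, 3.12, 0.21 and 0.21 on Het arrays 2, 3, 4 and 5, and at 1.26, 0.92, 1.44 and 1.07 on WT arrays 1, 2, 3 and 5. Over the 12 arrays it correlated with Tbx15 a at r = 0.987. The third probe, Tbx15 c on the plus strand of chr3:99147841-99147900, had an r of 0.625 with Tbx15 a and ranged over -2.63 to -1.41 in KO, -3.85 to -2.76 in Het and -3.37 to -1.83 in WT cells. Its KO and WT levels overlapped, unlike those of the first 2 probes, and its KO and Het levels did not.

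Tbx18, a gene of the epicardium and sinus node, and Tbx2, a repressor that acts in the conduction system and limb, varied least. Probe Tbx18 a, on the minus strand of chr9:87805811-87805870, was at -0.85, -0.35, -0.66 and -0.78 on KO arrays 2, 3, 4 and 5, at -0.72, -0.97, -0.86 and -0.86 on Het arrays 2, 3, 4 and 5, and at -0.12, -0.44, -1.87 and -0.55 on WT arrays 1, 2, 3 and 5. The lowest was WT replicate 3, and the genotypes overlapped. Tbx18 b ranged over -2.89 to -2.49 in KO, -3.08 to -2.93 in Het and -3.63 to -1.97 in WT cells. The Tbx2 probe, on the plus strand of chr11:85910900-85910959, ranged over -3.72 to -2.51 in KO, -3.29 to -2.56 in Het and -3.15 to -2.86 in WT cells. It was above background on every array, while its neighbour Tbx4 swung by number, and its differences were -0.19 ± 0.25 for KO minus WT and 0.05 ± 0.25 for Het minus WT.

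The groups' levels did not overlap for 4 of the 10 tested probes in KO minus WT (Tbx15 a and b, Tbx20 a and b), where 8.64% of all tested probes did not overlap. They did not overlap for 2 in Het minus WT (Tbx20 a and b; 8.65% of all) and for 2 in KO minus Het (Tbx15 c and Tbx18 b; 9.9% of all). Without the arrays numbered 3, 13 T-box probes were tested. Of these, 8 were called in KO minus WT, from Tbx3, Tbx5, Tbx15 and Tbx20, where 15.4% of all tested probes were called. In Het minus WT 7 were called, from the same 4 genes, where 10.2% of all were called, and in KO minus Het 5 were called, from Tbx4, Tbx5 and Tbx15, where 7.82% of all were called. Tbx3 b, Tbx5 a and Tbx5 b were tested only once the arrays numbered 3 were left out. Tbx3 b, Tbx5 a, Tbx20 a and Tbx20 b passed the filter through WT alone, where they were high. Tbx5 b passed it through WT and KO, and Tbx4 a through KO alone, where it was high. Nothing is read from these counts against the shares. Removing WT replicate 3 alone raised the calls over all probes to 2395 in KO minus WT, against 382 with all arrays, and to 2028 in Het minus WT, against 277.

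**Figure D4:**
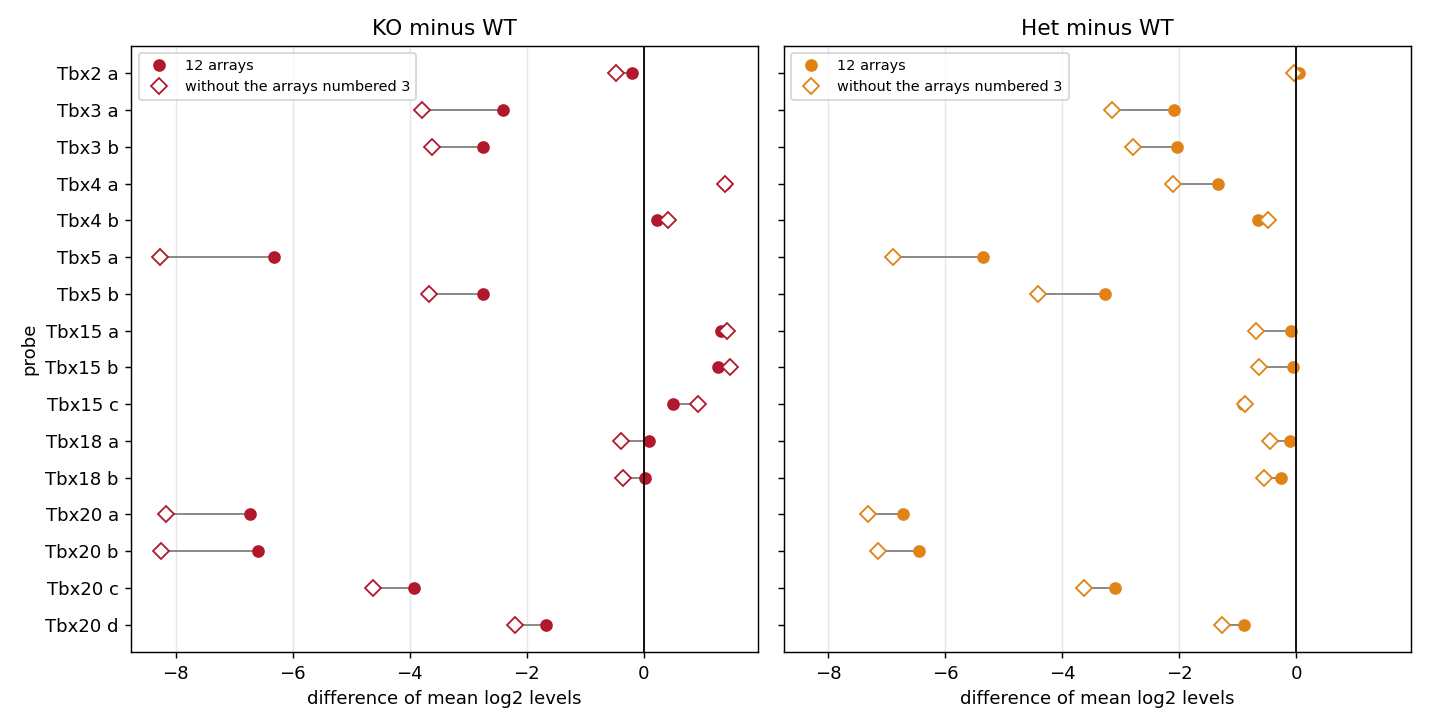
Difference of mean levels (x axis, log2 units) for the 16 probes, KO minus WT on the left and Het minus WT on the right; filled circles use all 12 arrays and open diamonds leave out the arrays numbered 3. Leaving them out moves Tbx3, Tbx5 and Tbx20 further from 0, and it moves KO minus WT of Tbx5 a to -8.27 with 12-array value -6.32.

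Other genes of the T-box setting were taken from 6 lists chosen with earlier results of these data known. Of the 10 other T-box genes 4 were tested, and limma called 0 in each comparison, with 0 at an unadjusted p under 0.05. The probe with the highest mean stands for a gene, and a list's median stands beside the median over all tested probes, which was 0.04 for KO minus WT, 0.02 for Het minus WT and 0 for KO minus Het. The medians of the 4 other T-box genes were -0.43, -0.07 and -0.16. Without the arrays numbered 3, which raised the calls over all probes too, 1 of 5 was called in KO minus WT, 1 in Het minus WT, both lower, and 0 in KO minus Het. Over all tested probes, in that order, 1.49%, 1.08% and 0.817% were called with all arrays. Without the arrays numbered 3 these shares were 15.4%, 10.2% and 7.82%. Nothing is read from the counts of any list against them. Eomes, a factor of early mesoderm, was not called and was chosen after its values were seen: it was at -5.97, -2.07, -6.35 and -6.68 on KO arrays 2, 3, 4 and 5, between -6.2 and -5.12 on Het arrays, and at -0.72, -0.58, -8.22 and -0.18 on WT arrays 1, 2, 3 and 5. Like Tbx5, it was high on WT arrays 1, 2 and 5 and below background on WT array 3.

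Among 22 heart factors that act with T-box proteins, 13 were tested. In KO and in Het relative to WT 1 fell, Irx5, a homeobox factor of the heart's conduction gradient (-1.49 in KO, adjusted p = 0.0129 from limma, and -1.88 in Het, adjusted p = 0.00731), and 0 rose. Their median difference was -0.22 for KO minus WT, -0.2 for Het minus WT and 0.32 for KO minus Het. In the last, limma called 0 of the 13, and 2 had an unadjusted p under 0.05, against 2879 of all 25590 tested probes. Among 17 tested without the arrays numbered 3, 1 was called higher and 6 lower in KO minus WT, 0 and 6 in Het minus WT, and 4 and 1 in KO minus Het. Of all tested probes 15.4%, 10.2% and 7.82% were called there. On the arrays numbered 3, Smarcd3 and Msx1 were higher and Nkx2-5 and Zfpm2 lower than every other array of the genotype, in all genotypes. Of all tested probes 6.87% were higher and 8.19% lower. Isl1, a factor of the second heart field and hindlimb, and Nkx2-5, a partner of Tbx5 in heart muscle, were chosen after their values were seen. Isl1 was at -8.35 to -7.91 in KO, at -8.12 to -7.01 in Het, and at -0.62, -0.13, -8.33 and 0.24 on WT arrays 1, 2, 3 and 5. Nkx2-5 was lowest on the array numbered 3 in each genotype: -4.95 there against -1.67 to -1.51 on the other KO arrays, -4.92 against -4.3 to -4.01 in Het, and -4.29 against -1.92 to -0.38 in WT cells.

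Among 30 limb and girdle field genes, 24 were tested. Wnt5a, a signal of limb outgrowth, fell in KO (-1.47, adjusted p = 0.00237 from limma) and in Het cells (-1.86, adjusted p = 0.00325), and it was the 1 gene of the list called in KO minus WT with all arrays. In Het minus WT 2 fell, Wnt5a and Shox2, a homeobox factor of the limb and sinus node (-4.19, adjusted p = 0.0292 from limma), and 0 rose. In KO minus Het Shox2 rose (3.82, adjusted p = 0.0357 from limma) and En1, a homeobox factor of the ventral limb ectoderm, fell (-2.39, adjusted p = 0.0445), with En1 above background on 2 of 4 KO arrays. The medians were -0.3, -0.32 and 0 for the 3 comparisons. Among 25 tested without the arrays numbered 3, 4 were called higher and 6 lower in KO minus WT, 1 and 7 in Het minus WT, and 5 and 3 in KO minus Het. Of all tested probes 15.4%, 10.2% and 7.82% were called there. Of the 24, Pitx1, Prrx2 and Lhx2 were higher and Meis1 lower on the array numbered 3 in all genotypes, against 6.87% higher and 8.19% lower over all tested probes.

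Pitx1, the homeobox factor upstream of Tbx4 in the hindlimb, and Fgf10, the limb bud signal downstream of Tbx4 and Tbx5, were chosen after their values were seen. Pitx1 was at 4.01 on KO array 3 and at 3.48 to 3.89 on the other KO arrays, at 3.43 on Het array 3 and at -4.64 to -3.22 on the other Het arrays, and at 2.83 on WT array 3 and at 1.07 to 1.53 on the other WT arrays. In Het cells it thus separated the array numbered 3 from the others as Tbx4 and Tbx15 did. Fgf10 was at -0.5 on KO array 3 and at -7.11 to -6.29 on the other KO arrays, at -0.29 on Het array 3 and at -3.02 to -2.85 on the other Het arrays, and at -1.8 on WT array 3 and at -3.47 to -0.77 on the other WT arrays. In WT cells array 1 and not array 3 was the highest for Fgf10.

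**Figure D5:**
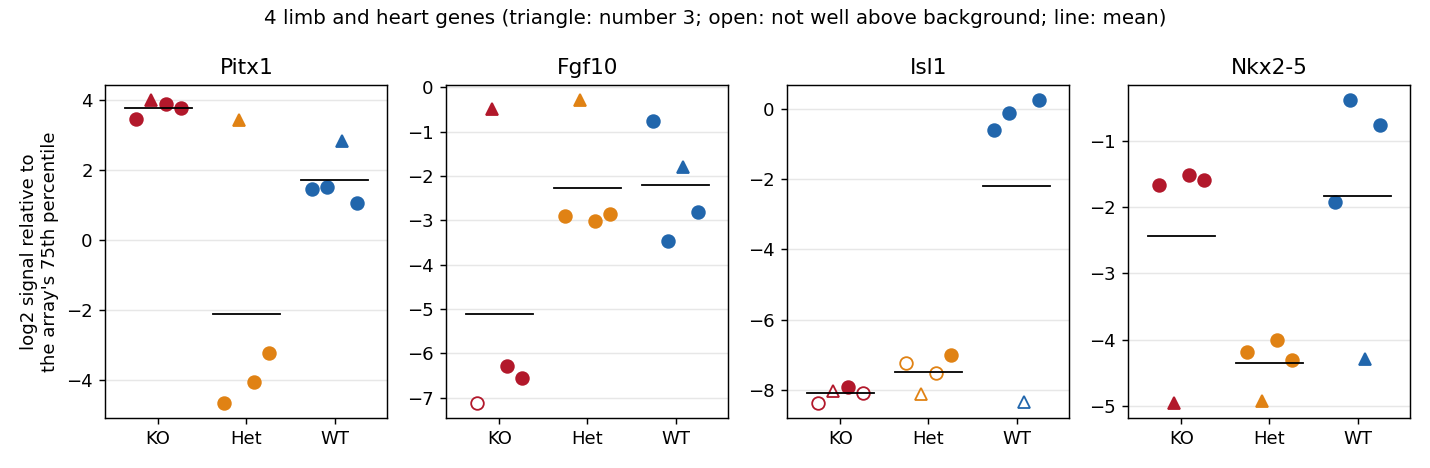
Level of 4 limb and heart genes (y axis, log2 signal relative to the array's 75th percentile, with its own scale in each panel) in KO, Het and WT cells, drawn as in the plot of T-box levels. Pitx1 is at 3.43 on Het array 3 and below -3 on the other Het arrays, and Isl1 is between -0.62 and 0.24 on WT arrays 1, 2 and 5 and at -8.33 on WT array 3.

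Of 24 reported T-box targets 20 were tested and limma called 0 in each comparison, with medians of -0.06, -0.07 and -0.06. An unadjusted p under 0.05 was found for 7, 9 and 3 of them in KO minus WT, Het minus WT and KO minus Het. Over all 25590 tested probes it was found for 4157, 4072 and 2879 in that order. Among 23 tested without the arrays numbered 3, 2 were called higher and 6 lower in KO minus WT, 2 and 7 in Het minus WT, and 5 and 2 in KO minus Het. On the arrays numbered 3, 4 of them were higher in all genotypes (Cdh1, Cacna1g, Wnt2 and Col2a1) and 3 lower (Nppa, Gja5 and Tnnt2), named by that count. For these counts and those of the lists below, 15.4%, 10.2% and 7.82% of all tested probes were called without the arrays numbered 3. On those arrays 6.87% were higher and 8.19% lower. Of 16 genes of epicardium and mesothelium 8 were tested, with medians of 1.08, 0.2 and 0.62. Scx, a factor of tendon precursors, rose in KO (1.69, adjusted p = 0.00248 from limma) and in Het cells (1.55, adjusted p = 0.00731) relative to WT. Also in Het minus WT, Krt8, a keratin, rose (3.36, adjusted p = 0.034 from limma, above background on 1 of 4 WT arrays), and Upk3b, a mesothelial membrane protein, fell (adjusted p = 0.0414, at least 2.57-fold, on no Het array above background). In KO minus Het limma called 0 of the 8, and 2 had an unadjusted p under 0.05, against 2879 of all 25590 tested probes. Among 10 tested without the arrays numbered 3, 2 were called higher and 3 lower in KO minus WT, 2 and 3 in Het minus WT, and 2 and 2 in KO minus Het. Sema3d was higher and Msln, Krt18 and Scx were lower on the arrays numbered 3 in all genotypes. Of 25 upstream signals 19 were tested, with medians of 0.2, 0.06 and 0.05, and Bmp4, a ligand that induces several T-box genes, was the 1 called: it fell in Het relative to WT cells (-2.31, adjusted p = 0.0123 from limma) and was higher in KO than in Het cells (2.74, adjusted p = 0.00444). Among 23 tested without the arrays numbered 3, 4 were called higher and 3 lower in KO minus WT, 2 and 3 in Het minus WT, and 5 and 2 in KO minus Het. Bmpr1b, Smad6, Id2 and Gli1 were higher and Nog was lower on the arrays numbered 3 in all genotypes.

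For each T-box gene, the other tested genes whose levels were most like its brightest probe over the 12 arrays were ranked by Pearson's r among 12191 genes (12192 for Tbx5), as a description. All points of 1 array share its RNA, slide and scaling. The 3 closest to Tbx20 were Farp2 (0.981), Peg3 (0.972) and Plekha7 (0.962). For Tbx5 they were Stox2 (0.976), Gzmm (0.966) and Asb5 (0.959), and for Tbx3 Tmem158 (0.984), Ica1l (0.979) and Klra13 (0.964). For Tbx4 they were Sema3d (0.967), Hoxd8 (0.959) and Wnt2 (0.952), of which Sema3d and Wnt2 were already in the lists above. For Tbx15 they were Foxp1 (0.955), Ell2 (0.935) and Nov (0.932), for Tbx18 Aff1 (0.959), Flrt2 (0.957) and B3galt1 (0.955), and for Tbx2 Sox12 (0.904), Mfge8 (0.865) and Cd81 (0.853).

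The genes that flank the neighbour pairs were looked at after the T-box values were seen. Bcas3 and Brip1, on either side of Tbx2 and Tbx4, and Med13l and Rbm19, on either side of Tbx3 and Tbx5, were called in 0 comparisons and were not beyond the other arrays on number 3 in all genotypes. The differences of Med13l were -0.78 ± 0.32 for KO minus WT and -0.84 ± 0.32 for Het minus WT, and those of Rbm19 were -0.09 ± 0.26 and -0.19 ± 0.26. Those of Bcas3 were 0.17 ± 0.19 and 0.17 ± 0.19, and those of Brip1 were 0.38 ± 0.17 and 0.1 ± 0.17. Of the nearest tested genes around Tbx15, Tbx18 and Tbx20, Dpy19l1 and Herpud2 near Tbx20 and Nt5e beside Tbx18 were higher on the array numbered 3 in all genotypes, and Wars2 and Spag17 beside Tbx15 and Cep162 beside Tbx18 were not beyond the other arrays. Limma called 0 of these 6 in each comparison.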

How the data were processed

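Per the file headers and the submitters' processing notes, the authors scanned 12 1-colour arrays and extracted them with Agilent Feature Extraction 9.5. The deposited processed signal is a background-subtracted intensity on a linear scale; the deposited series table holds the same values. The flags of the deposited spot data marked outlier spots and spots well above background as 0 or 1. Here control and outlier spots were left out, spots of 1 probe averaged, and log2 intensity taken minus the array's 75th percentile. Each probe was fitted with limma 3.58.1 in R 4.3.3 on genotype means over 12 arrays, with Benjamini-Hochberg adjustment over the 25590 tested probes, of 41149 with a value on every array. The fit was tested on simulated data with independent noise for each probe and array. That simulation lacked the shared deviations of these arrays, so it does not show the rate of false calls here.

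The genes, the lists and the tests were chosen with earlier results of these data known. Named were every probe of the 7 genes, up to 6 called genes a list and comparison by size of difference, the 3 genes most like each, Sirt1, label checks and markers; genes beyond the other arrays on number 3 were named by that count, and any other name is stated as chosen after its values were seen. Alternatives changed the background correction (normexp, offset 50), scaling, filter, probe choice, slide block, replicate block and arrays included. The number of arrays limits the precision. The slide of each array was read from the deposited spot data. Upstream read-out settings are not given in the sources used here.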

Additional observations from a re-analysis of the deposited data

Results flagged for a closer look

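In 12 of the 48 groups of 4 arrays (16 probes in 3 genotypes), the highest or lowest array stood apart from the others by Dixon's criterion. The criterion flags about 5% of independent groups by chance. These groups share genes and arrays, and the genes were chosen from these levels, so nothing is read from the count. An array numbered 3 was the one apart in 10 of the 12. Tbx4 was high there: probe a in KO at -1.02 against -5.25 to -5 on the other arrays, and probe b in KO at -3.72, in Het at -4.51 and in WT at -3.35, against -7.51 to -6.93, -8.4 to -7.96 and -7.79 to -7.42. Tbx15 a was high on Het array 3 at 3.19, against 0.56 to 0.98, and Tbx20 a on KO array 3 at -3.73, against -9.31 to -8.46. Low on an array numbered 3 were Tbx3 a in Het (-2.39 against -0.79 to -0.58) and in WT (-3.49 against 2.35 to 2.58), Tbx5 a in WT (-6.44 against 0.22 to 0.74) and Tbx5 b in WT (-8.19 against -3.46 to -2.64). The others were Tbx20 c and d on Het array 5, at -10.04 and -10, against -8.21 to -7.96 and -8.17 to -7.94, on probes that no Het array measured above background. Het array 5 lay on slide 4, so these levels have no order against those of the other Het arrays.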

How the results depend on the processing

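The numbers of probes called moved by more than 1.5 times under many alternatives. For KO minus WT, 382 calls became 161 with the normexp correction, 153 without scaling, 118 without the filter, 72 with slide as a fixed block, 141 with only those 2 genotypes and 4125 without the arrays numbered 3. For Het minus WT, 277 became 58, 162, 61, 58, 72 and 2737 in the same order. For KO minus Het, 209 became 88 with normexp, 87 without the filter, 121 with probes above background on all 12 arrays, 107 with the slide block, 388 with only those 2 genotypes and 2095 without the arrays numbered 3. Leaving out 1 array gave 68 to 2395, 40 to 2028 and 49 to 528 calls, with the highest counts without WT replicate 3 for both comparisons with WT and without Het replicate 3 for KO minus Het. The cause was not tested. With the title number as a replicate block the counts were 146, 110 and 218, and Tbx20 b was no longer called against WT (-6.28 ± 1.2 in KO and -6.13 ± 1.2 in Het). The numbers were not taken to pair the arrays: deviations of same-numbered arrays correlated between -0.09 and 0.4, with 5 of 10 pairs over 0.1 (all 3 pairs of number 3, at 0.2 to 0.4, among them), and 3 of 12 arrays correlated best with their own number. Tbx20 b was also no longer called in KO minus WT with only those 2 genotypes and in Het minus WT without the filter. The 48 T-box differences had 960 values under the alternatives, where single arrays were left out only from the genotypes compared. Of these, 21 lost their call, all of Tbx20, 15 moved by more than the spread between arrays, and 52, from 18 differences, changed sign; none of the 52 belonged to a called difference. The normexp correction, whose offset shrinks differences of dim probes, gave KO minus WT of -2.71 for Tbx20 b and 0.18 for Tbx20 d, against -6.59 and -1.67. Signals below background limit what can be said of Tbx5, Tbx20 and Tbx4.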
